A study of Mus musculus with 360 samples.

Results

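The genes described here were chosen as high in skeletal stem and progenitor cells of the coronal suture (COR) against one or more of the posterior frontal suture, the sagittal suture and the growth plate: Lrrc15, Tnfaip6, Lgals3, Tppp3, Kcnn4, Ankrd6, Pdzrn4 and Farp2. They are 8 of the 24015 genes listed in the count tables. They were picked by their summed reads in COR against the other tissues, so their COR levels describe the choice and carry no test. The choice did not directly use how their reads were spread over plates and over single cells. Nor did it directly use whether the same COR cells held several of them, or which other genes went with them from cell to cell. Earlier results of these data were known when the genes were chosen. High summed reads in COR make high COR plates and high shares of COR cells likely, so these follow in part from the choice.

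The study compared sorted CD51+;CD200+ cells from the posterior frontal (PF), sagittal (SAG) and coronal sutures, the fibrous joints of the skull vault, and from the tibial growth plate (GP), a cartilage that lengthens the bone. The mice were of the CD-1 strain, 3 days old, with no mutant allele or treatment named in any group, and cells bearing CD105, 6C3, Tie2, CD45, Ter119, Thy1.1 or Thy1.2 were sorted out. Tissue from several mice was pooled and no animal was named for any cell, so each tissue is 1 sample, no difference between tissues was tested, and the 2 plates of a tissue give the only spread within it. Each suture was taken with its membranes and bone edges attached, so the layer from which a sorted cell came is not known.

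Of 360 cells, 325 reached the limits of 500 detected genes and 10000 reads. These were 87 PF cells (34 on plate 1 and 53 on plate 2), 86 SAG cells (30 and 56), 74 COR cells (16 and 58) and 78 GP cells (20 and 58). Reads of the ribosomal RNA gene Rn45s, which took 86.8% of SAG plate 2 and 20.2% to 30.96% of each other plate, were left out of every total. The median COR cell held 448803 remaining reads and 3364 genes with a read, the median GP cell 369308 and 2966, the median PF cell 312083 and 2511, and the median SAG cell 184673 and 971. COR was therefore the tissue in which most genes were seen in most cells, and SAG the one in which fewest were. Transcripts of the sort's positive markers were found in COR, with reads of Itgav (CD51) in 45 and of Cd200 in 41 of 74 cells, while Tek (Tie2) had 0 reads in every tissue and Ptprc (CD45) had reads in 1 COR cell. Of the other proteins sorted against, Enpep (6C3) had reads in 5 COR cells, Eng (CD105) in 4 and Thy1 in 1.

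The 8 genes do different work in a cell. Lrrc15 codes for a membrane protein with leucine-rich repeats that is known from activated and matrix-forming fibroblasts, Tnfaip6 for the secreted protein TSG-6, which binds hyaluronan and remodels its matrix, and Lgals3 for galectin-3, a sugar-binding lectin found inside and outside cells. Tppp3 belongs to the tubulin polymerization promoting proteins and is known from tendon sheath progenitors, and Kcnn4 codes for an intermediate-conductance potassium channel opened by calcium. Ankrd6 (diversin) works in Wnt and planar polarity signalling, Pdzrn4 is a PDZ and RING finger protein, and Farp2 is an exchange factor for small GTPases that acts downstream of plexins.

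The stretches before annotated starts of 4 of these genes are shown because their reads went together across COR cells, as described further on. For Lgals3 the RefSeq start used lies 6109 bases inside the gene as GENCODE M1 places it on mm9, so its stretch is not the one before that first start. The sequences come from RefSeq (GRCm38.p6), where 7 of the 8 genes matched, all but Tppp3, and each was placed on mm9, the build of the count tables, by its single exact match. Each runs 5′ to 3′ on the gene's strand and stops at the annotated start or at the first base of an annotated exon. Capitals mark matches, on either strand, to AP-1 (TGANTCA), TEAD (GGAATG), RUNX (TGTGGT), GC box (GGGCGG) or TATA box (TATAAA) letters. Lrrc15 is shown at chr16:30283343-30283590 (minus strand), Tnfaip6 at chr2:51893383-51893528, Lgals3 at chr14:47993285-47993487 and Kcnn4 at chr7:25155032-25155281 (all plus strand).
Lrrc15: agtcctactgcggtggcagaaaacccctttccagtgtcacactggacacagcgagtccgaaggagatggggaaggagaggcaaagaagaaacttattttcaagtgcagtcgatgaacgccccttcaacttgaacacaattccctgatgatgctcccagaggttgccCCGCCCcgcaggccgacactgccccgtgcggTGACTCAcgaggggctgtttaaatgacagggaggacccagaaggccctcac
Tnfaip6: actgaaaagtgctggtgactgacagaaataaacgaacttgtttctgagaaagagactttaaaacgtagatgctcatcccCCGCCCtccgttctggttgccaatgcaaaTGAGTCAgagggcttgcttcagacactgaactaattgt
Lgals3: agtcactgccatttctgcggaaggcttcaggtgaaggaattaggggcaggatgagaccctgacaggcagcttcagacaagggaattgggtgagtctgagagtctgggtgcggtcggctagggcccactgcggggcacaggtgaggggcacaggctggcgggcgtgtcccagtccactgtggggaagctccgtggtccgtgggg
Kcnn4: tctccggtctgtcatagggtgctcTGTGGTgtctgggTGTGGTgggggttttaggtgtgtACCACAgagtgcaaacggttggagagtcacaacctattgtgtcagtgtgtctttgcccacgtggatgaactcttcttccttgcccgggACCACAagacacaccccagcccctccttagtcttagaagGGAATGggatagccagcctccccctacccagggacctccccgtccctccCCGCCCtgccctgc
In the full window of 250 bases, AP-1 letters stood 53 bases before the RefSeq start of Lrrc15 and 142 bases before that of Tnfaip6, and in no window of the other matched genes. Among 32536 mouse promoter windows of this length, 6.73% held AP-1 letters. Kcnn4 had 4 RUNX matches between 226 and 102 bases before its start, and 1 of the Pdzrn4 windows had 1 at 160 bases. Of all windows 13.96% held RUNX letters, and how many held several was not counted. Kcnn4 had 1 TEAD match at 63 bases. Tnfaip6 also had TEAD letters 8 bases before its RefSeq start, past the stretch shown, and 12.6% of all windows had them. GC box letters, found in 32.97% of windows, were in those of Lrrc15, Tnfaip6, Lgals3 (past the stretch shown), Kcnn4 and Farp2 and in the first of the Ankrd6 windows. TATA box letters (12.3% of windows) were in none of those searched. A match is a string of letters and says nothing about binding.

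Levels are the summed reads of a gene in every 1000000 reads other than Rn45s (CPM), and a log2 ratio is log2 of (CPM + 1) in COR over (CPM + 1) in the other tissue, a scale that understates changes of low genes. A gene is called raised where this ratio was at least 1 and both COR plates stood above both plates of the other tissue. By this rule 7 of the 8 genes were raised over PF (6.6% of 10686 genes with at least 10 CPM in a tissue), 6 over SAG (18.9%) and 5 over GP (6.39%). All 8 passed the level filter. Lrrc15, Tppp3 and Kcnn4 were raised over all 3 tissues, as were 0.721% of genes. The median log2 ratio of the 8 genes was 4.29 to PF, 2.69 to SAG and 1.35 to GP, beside -0.01, 0.30 and 0.06 for all genes tested. The genes were chosen on these contrasts, so nothing is read from the counts beyond which gene stood above which tissue. The 3 contrasts share the COR cells.

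**Figure D1:**
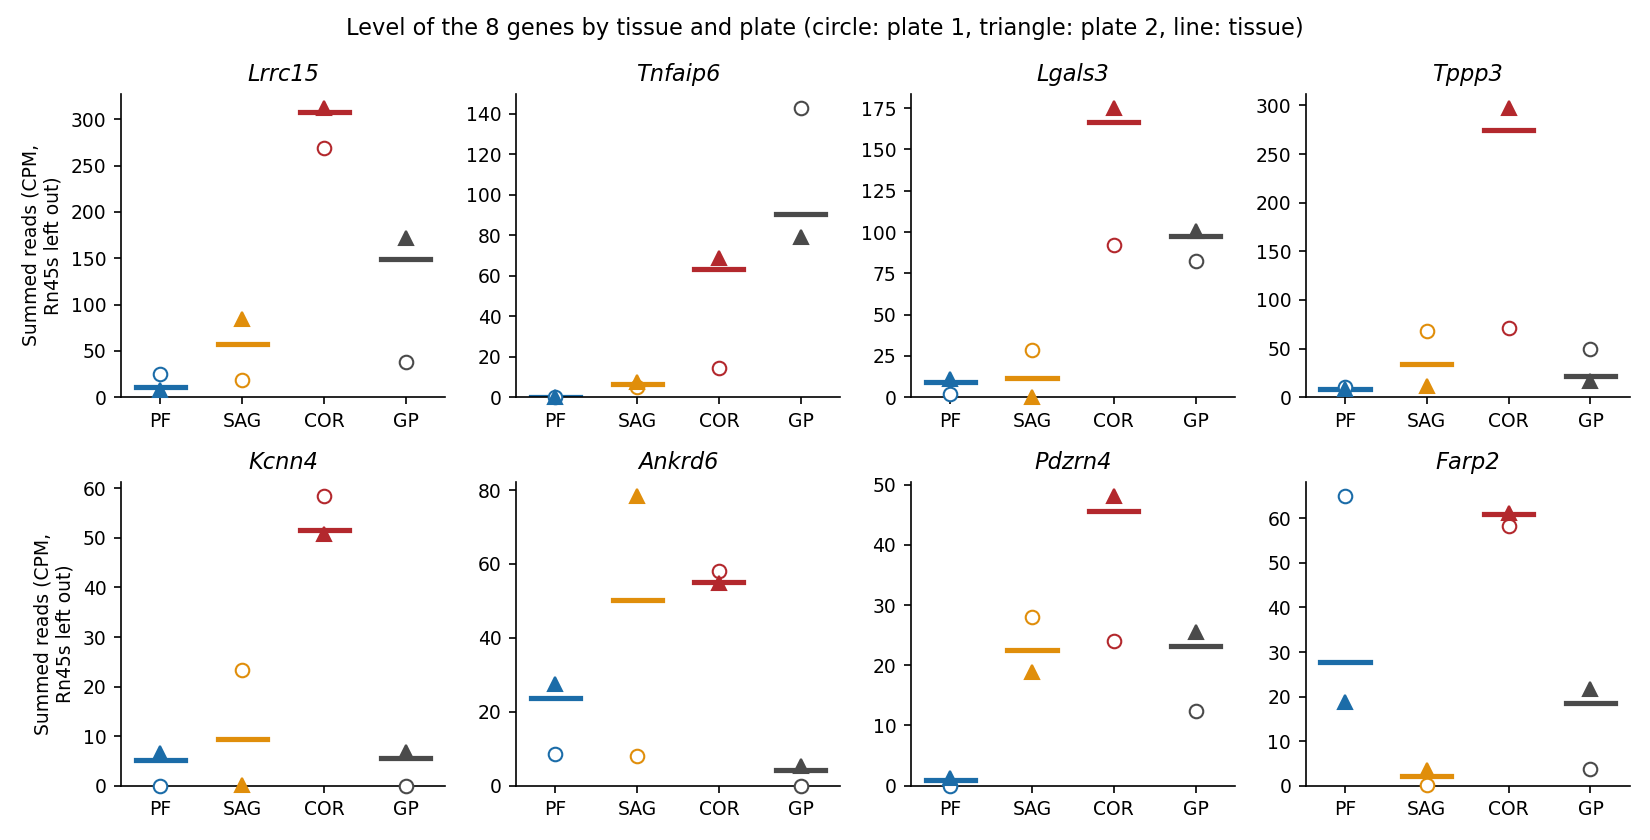
Summed reads of each gene in CPM (vertical axes, linear and from 0, a scale of its own for each gene) in PF, SAG, COR and GP. Circles are plate 1, triangles plate 2 and lines the whole tissue. Both COR plates of Lrrc15, Tppp3 and Kcnn4 lie above every other plate, both GP plates of Tnfaip6 lie above both COR plates, and SAG plate 2 of Ankrd6 and PF plate 1 of Farp2 reach the COR level.

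Lrrc15 (chr16:30269388-30283342, minus strand, mm9) had the highest total of the 8 genes in COR, with 268 CPM on plate 1 and 313 CPM on plate 2. GP followed with 37.6 and 172 CPM, then SAG with 18.3 and 84.2 CPM and PF with 25.4 and 8.04 CPM. COR lay above all 6 other plates, while the plates of GP and SAG overlapped, as did those of SAG and PF. The log2 ratio was 4.64 to PF (plates 3.35 to 5.12), 2.39 to SAG (1.66 to 4.02) and 1.04 to GP (0.64 to 3.02). The ratio to GP was just inside the limit of 1, and it was 0.84 without GP plate 1, 0.85 without COR plate 2, 0.98 with TMM factors and 0.97 with median-of-ratios size factors.

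Tppp3 (chr8:107991393-107995322, minus strand) had 71.03 CPM on COR plate 1 and 298 CPM on COR plate 2. SAG held 68.2 and 11.03 CPM, GP 49.2 and 16.4 CPM and PF 9.97 and 7.91 CPM. The lower COR plate and the higher SAG plate were close together, so that the log2 ratio to SAG ran from 0.06 to 4.63 over the plates around 2.98 for the tissues. In COR the cell with most reads held 24.1% of them. Per kilobase of annotated exon Tppp3 was the highest of the 8 genes in COR, at 269 CPM per kb, ahead of Lgals3 (89.7), Lrrc15 (58.01), Tnfaip6 (36.9), Kcnn4 (20.4), Farp2 (11.6), Pdzrn4 (10.9) and Ankrd6 (10.1).

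Kcnn4 (chr7:25155282-25170228, plus strand) was low outside COR. Its COR plates held 58.4 and 50.9 CPM, and the other 6 plates 0 to 23.4 CPM. Outside COR its reads came from very few cells: 1 PF cell held all 159 PF reads, 1 of 2 GP cells held 99.4% of the GP reads, and 3 SAG cells had reads. In COR, 20 of 74 cells had reads and the cell with most Kcnn4 reads held 19.95% of them. PF plate 1 and GP plate 1 had 0 Kcnn4 reads, where 3 reads would have been 0.507 and 0.607 CPM.

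Lgals3 (chr14:47987426-48005835, plus strand) had 92.3 and 175 CPM on the COR plates, 82.6 and 100.7 CPM on the GP plates, 28.8 and 0 CPM on the SAG plates and 2.03 and 10.9 CPM on the PF plates. COR and GP overlapped, and both lay above SAG and PF. The log2 ratio to GP was 0.77 (plates -0.12 to 1.08), and it was -0.08 without COR plate 2.

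Tnfaip6 (chr2:51893529-51912206, plus strand) differed from the others in that GP was higher than COR on every plate. GP held 143 and 79.4 CPM and COR 14.2 and 68.6 CPM, a log2 ratio of COR to GP of -0.51 (plates -3.24 to -0.21). However, 1 GP cell held 40.1% of the GP reads, and without the cell with most Tnfaip6 reads of each tissue the ratio was 0.06. SAG had 5.09 and 7.74 CPM. PF had 3 reads in all, from 1 cell, a level of 0.10 CPM with an exact 95% Poisson interval of 0.02 to 0.29 CPM, where COR had 63.1 CPM (60.4 to 65.9). Intervals cover counting error only, since reads after PCR are not molecules.

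Pdzrn4 (chr15:92227346-92602250, plus strand) had 24.1 and 48.1 CPM in COR, 28.1 and 18.96 CPM in SAG, 12.3 and 25.6 CPM in GP and 0 and 1.23 CPM in PF. COR, SAG and GP overlapped, and PF lay below all 3. Its log2 ratios of 0.98 to SAG and 0.94 to GP were just outside the limit. The first was 0.09 without COR plate 2 and 1.22 without SAG plate 1, and the second 0.05 without COR plate 2 and 1.80 without GP plate 2.

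Ankrd6 (chr4:32891010-33037816, minus strand) had nearly equal COR plates, 58.1 and 54.7 CPM. GP held 0 and 5.23 CPM, PF 8.45 and 27.4 CPM and SAG 8.15 and 78.3 CPM. SAG plate 2 thus stood above both COR plates. Its reads came from 2 cells, and 1 cell held 66.5% of all SAG reads of the gene. The log2 ratio to SAG was 0.13, and it was 2.62 without SAG plate 2, -0.50 without SAG plate 1, -0.09 with TMM factors and -0.20 with median-of-ratios size factors.

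Farp2 (chr1:95408656-95518553, plus strand) also had nearly equal COR plates, 58.4 and 61.3 CPM. PF plate 1 reached 64.9 CPM and PF plate 2 had 18.7 CPM, so PF and COR overlapped. GP held 3.85 and 21.8 CPM and SAG 0.15 and 3.58 CPM, the former from 1 read. The last exons of Farp2 and of Stk25, on the opposite strand, overlap, and reads of both genes cannot be told apart there. The use of strand in the counting was not stated. Stk25 had 67.4 CPM in COR, 68.4 in SAG, 79.97 in GP and 80.99 in PF.

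By the share of cells with a read, COR came first of the 4 tissues for every one of the 8 genes, and for 7 of them both COR plates lay above all other plates. The exception was Tnfaip6, with reads in 4 of 16 cells on COR plate 1 (25%) and in 7 of 20 on GP plate 1 (35%). As the genes were chosen for their summed COR reads, the high COR shares follow in part from the choice. In COR, Lrrc15 had reads in 37 of 74 cells (50%, exact 95% interval 38.1 to 61.9), Lgals3 in 29, Tnfaip6 and Farp2 in 27 each, Ankrd6 in 26, Tppp3 in 25, Pdzrn4 in 22 and Kcnn4 in 20 (27.03%, 17.4 to 38.6). For Tnfaip6, higher in GP by level, the share was 36.5% in COR (interval 25.6 to 48.5) and 20.5% in GP (interval 12.2 to 31.2). For Ankrd6 it was 35.1% in COR (interval 24.4 to 47.1) and 5.81% in SAG (interval 1.91 to 13.05). The Tnfaip6 intervals overlapped, as did those of Tppp3 and Pdzrn4 in COR and GP and of Farp2 in COR and PF. The intervals treat cells as independent although each tissue is 1 sample, so neither overlap nor its absence is a test between tissues. In PF, Tnfaip6 and Kcnn4 were found in 1 of 87 cells each (1.15%).

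Depth moved with these shares. Over all 10686 genes the median share of cells with a read was 24.3% in COR, 20.5% in GP, 16.1% in PF and 10.5% in SAG. The 8 genes thus lay above the median gene in COR and below it in PF, SAG and GP, apart from Farp2 in PF (19.5%) and Tnfaip6 in GP, which matched the median. With every cell thinned to 100000 such reads, at the loss of 17 PF, 6 SAG, 3 COR and 11 GP cells, the COR shares were 26.8% to 49.3% and the highest share of any of the 8 elsewhere was 22.4% (Tnfaip6 in GP). Thinning left the number of genes per cell unequal, with medians of 3206 in COR, 2904 in GP, 2509 in PF and 919.5 in SAG. The part of RNA quality or capture in the shares was not tested.

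**Figure D2:**
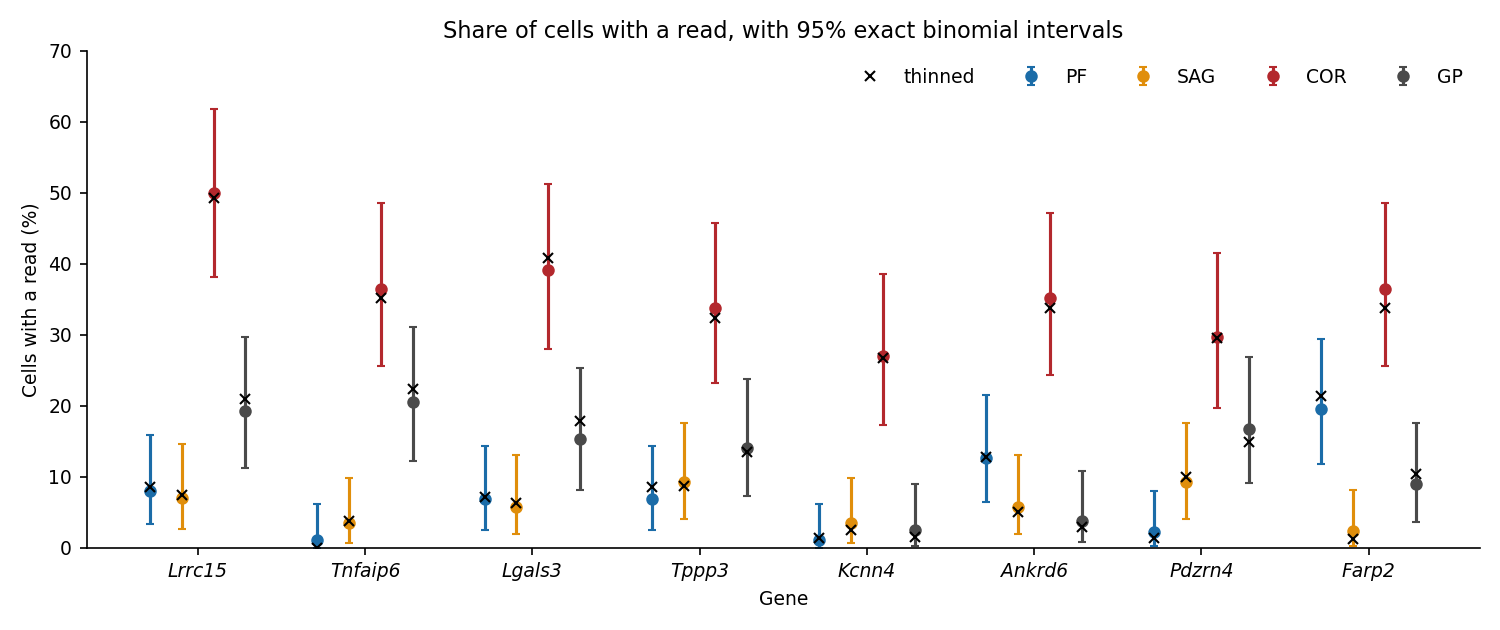
Percent of cells with at least 1 read (vertical axis) of each gene in PF, SAG, COR and GP, with exact 95% binomial intervals. Crosses are shares after thinning each cell to 100000 reads, and COR has the highest share for each gene before and after thinning.

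At least 3 of the 8 had reads in 37 of 74 COR cells (50%, 38.1 to 61.9), against 8 of 78 GP cells (10.3%, 4.53 to 19.2), 3 of 87 PF cells (3.45%, 0.72 to 9.75) and 1 of 86 SAG cells (1.16%, 0.03 to 6.31). The COR share was 68.8% on plate 1 (11 of 16 cells) and 44.8% on plate 2 (26 of 58), both above each plate of the other tissues, where the highest was 15% (GP plate 1). It was 43.2% where 10 reads were asked of each gene, with 37.5% on plate 1 (6 of 16) and 44.8% on plate 2 (26 of 58), so that the order of the COR plates turned, and 50.7% after thinning. Since each gene was chosen for its COR level, a higher number per COR cell follows in part from the choice. The product of the 8 single shares gives 44.2 COR cells with at least 3 of them, above the 37 counted.

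At both ends of the range COR cells were more numerous than this product gives. No gene had reads in 15 cells, where the product of the 8 single shares gives 2.00 cells, and at least 5 had reads in 19 cells, where it gives 8.54. In between, 11 cells held 1 gene, 11 held 2, 7 held 3, 11 held 4, 5 held 5 and 10 held 6, while 2 cells held 7 and 2 held all 8. COR cells thus ranged from cells with none to cells with nearly the whole set. An excess over the product was not limited to COR. In PF 53 cells held none (product 46.5) and 2 held at least 5 (product 0.003). In GP 32 cells held none (product 25.9) and 2 held at least 5 (product 0.07). In SAG 57 cells held none (product 53.1) and 0 held at least 5. Within its plates little excess was left, with 12 cells holding none on plate 1 (product 10.8) and 45 on plate 2 (product 44.9). The number of genes held went with the number of all genes detected in the cell (r = 0.43 over 74 COR cells) and little with its reads (r = 0.08). The part of detection in the joint presence was not tested.

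**Figure D3:**
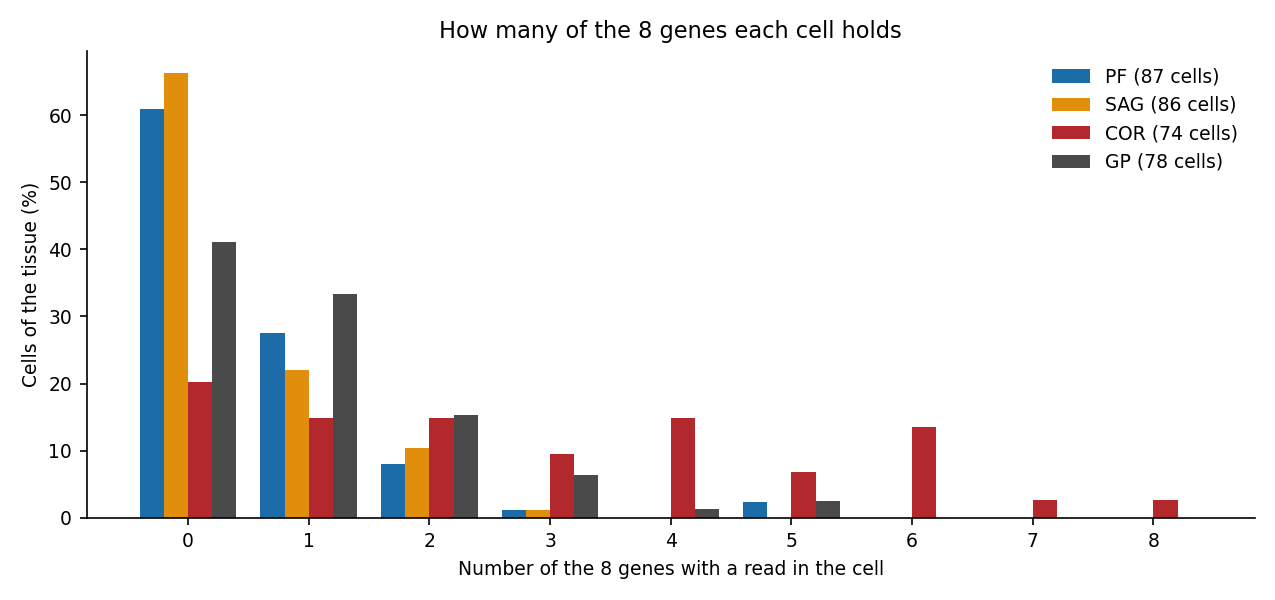
Percent of the cells of each tissue (vertical axis) by the number of the 8 genes with a read in the cell (horizontal axis). PF, SAG and GP cells mostly hold 0 or 1, while COR cells extend to 8, with 19 of 74 holding 5 or more.

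The first 5 genes, Lrrc15, Tnfaip6, Lgals3, Tppp3 and Kcnn4, varied together from COR cell to COR cell. Lgals3 and Tppp3 had the highest Pearson correlation of log2(CPM + 1) of the 28 pairs, 0.73 over 74 COR cells, with 0.74 on plate 1 and 0.73 on plate 2. Of 25 cells with Tppp3 reads, 21 also had Lgals3 reads, where the product of the shares gives 9.80 cells. The other pairs to reach 0.5 were 4, namely Lgals3 with Kcnn4 (0.54, with 0.29 on plate 1 and 0.61 on plate 2), Tnfaip6 with Tppp3 (0.53), Lgals3 with Lrrc15 (0.53) and Tppp3 with Kcnn4 (0.52). These 5 of 28 pairs stand beside 0.0405% of the 30361528 pairs among 7793 genes with reads in at least 10 COR cells and on both COR plates. The pair of Tppp3 and Kcnn4 rested on plate 2 (0.63), with 0.09 on plate 1. The cells of a tissue share plate, pooled animals and depth, so these correlations are descriptions.

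**Figure D4:**
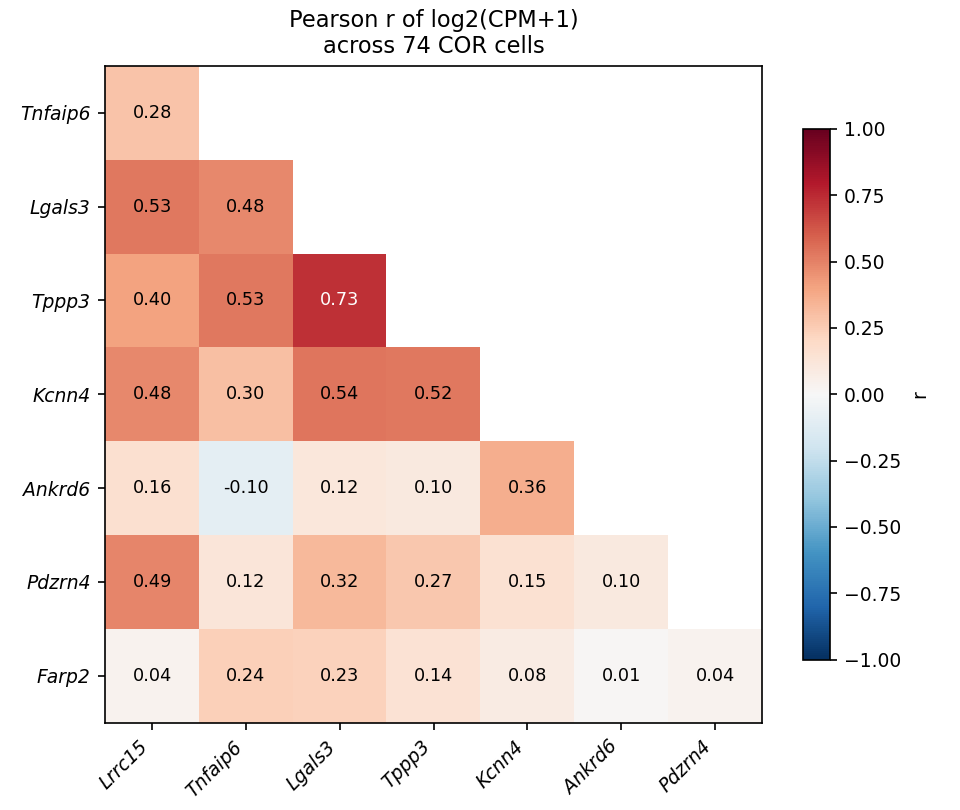
Pearson r of log2(CPM + 1) for each pair of the 8 genes over 74 COR cells (color scale from -1 to 1, values printed). Lrrc15, Tnfaip6, Lgals3, Tppp3 and Kcnn4 form a block with values from 0.28 to 0.73, while Farp2 and Ankrd6 have mostly low values.

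The other 3 genes had mostly lower values with this block over the 74 COR cells. Pdzrn4 went with Lrrc15 (0.49) and less with the rest (0.04 to 0.32), and 19 of its 22 COR cells had Lrrc15 reads. Ankrd6 went with Kcnn4 (0.36) and otherwise lay between -0.10 and 0.16, and Farp2 lay between 0.01 and 0.24 with every other gene. On plate 1, with 16 cells, Farp2 had 0.61 with Lgals3, 0.50 with Tnfaip6 and 0.43 with Tppp3, and Pdzrn4 had 0.56 with Tppp3 and 0.43 with Tnfaip6. The low values of Farp2 over all COR cells thus came with plate 2, where they lay between -0.07 and 0.23.

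The pairs were not alike in the other tissues. Lgals3 and Tppp3 had r = 0.43 over 87 PF cells, with 3 cells holding both, and 0.02 over 78 GP cells, with 2 holding both. Lrrc15 and Pdzrn4 had 0.57 over GP cells, with 9 holding both, above their COR value. Tnfaip6 and Tppp3 had 0.37 in GP. No other pair within the block of 5 genes reached 0.4 in PF or GP. Many of these pairs had too few cells with reads to show a correlation. Tnfaip6 and Kcnn4 had reads in 1 PF cell each, and Kcnn4 in 2 GP cells. On SAG plate 1 Lrrc15 and Kcnn4 had 0.72, with Lrrc15 reads in 1 cell. Tnfaip6 and Tppp3 had 0.49 there, with Tnfaip6 reads in 2 cells, and all other pairs of the block were negative.

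**Figure D5:**
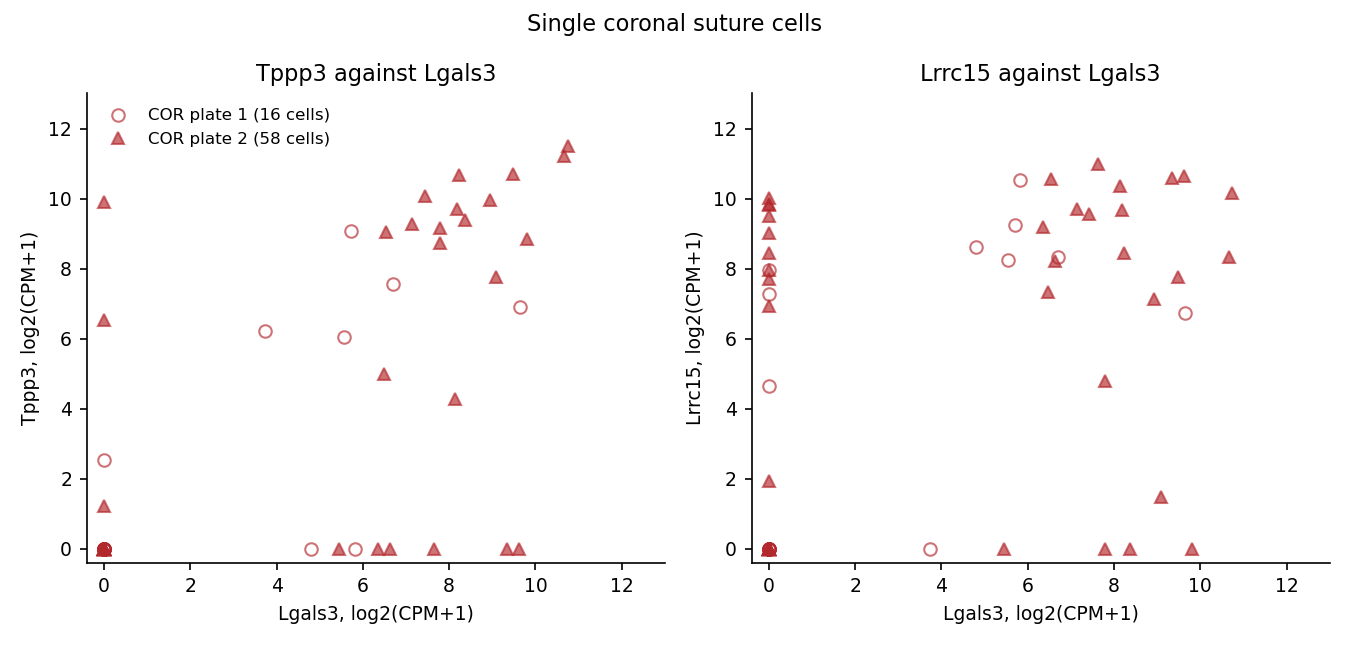
Levels in log2(CPM + 1) in single COR cells of Tppp3 (left) and Lrrc15 (right) against Lgals3, with circles for 16 cells of plate 1 and triangles for 58 cells of plate 2. Of 29 cells with Lgals3 reads, 21 have Tppp3 reads and 24 have Lrrc15 reads, and cells without any of the genes lie at the origin.

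Genes that went with each of the 8 across COR cells were named by a fixed number, the 3 highest correlations for each. Lrrc15 went with Tnn (0.61), which codes for the matrix protein tenascin-N, with S100a6 (0.61), a calcium-binding protein, and with Crispld2 (0.54). Tnn had 974 CPM in COR, 457 in GP, 141 in SAG and 85.8 in PF, the same order of tissues as Lrrc15, and 32 of the 37 Lrrc15 cells had Tnn reads. Lgals3 went with Tppp3, with Cav1 (0.69), the main protein of caveolae, and with Crip1 (0.67), a small LIM protein. Tppp3 in turn went with Lgals3, Cav1 (0.65) and Anxa1 (0.58), the calcium- and phospholipid-binding annexin A1. Tnfaip6 went with Cav1 (0.53), Tppp3 (0.53) and Anxa1 (0.51), and all 27 of its cells had Anxa1 reads, as had 57 of all 74 COR cells.

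Kcnn4 went with Cdh13 (0.63), a cadherin anchored to the membrane by a lipid, with Cav1 (0.62) and with C1qtnf3 (0.61). Cav1 was thus among the 3 nearest genes of Tnfaip6, Lgals3, Tppp3 and Kcnn4 alike. It had reads in 19 of 74 COR cells, at 184 CPM, beside 298 CPM in GP, 30.4 in PF and 1.10 in SAG. Over the 10 nearest genes, Cav1 and Crip1 were each shared by 4 of the 8 genes and Anxa1 and S100a6 by 3. Dpt, which codes for the matrix protein dermatopontin, was shared by Lgals3 (0.61) and Kcnn4 (0.58) and had 49.8 CPM in COR, 0.46 CPM in GP and 0 in PF and SAG.

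Among the nearest 10 of the other 3 genes, Plekhg4 was shared by Pdzrn4 and Lrrc15 (0.54 with each). Pdzrn4 went with Lcp2 (0.69), an adaptor protein known from blood cells, with Pak1 (0.54), a kinase downstream of Rac and Cdc42, and with Plekhg4 (0.54). Ankrd6 went with Elmo1 (0.53), which helps to activate Rac, with Ddx46 (0.47) and with Cdc42ep5 (0.45), an effector of Cdc42. Farp2 had the lowest values, with Pde3b (0.45), a phosphodiesterase, Tfdp1 (0.44), a partner of E2F factors, and Cep170 (0.44), a centrosome protein. These make up 23 distinct pairs, since Lgals3 and Tppp3 named each other, and all 23 were at least 0.4 in COR by the choice of the genes. On COR plate 1 alone 18 were, and all 23 were above 0, but the plate 1 cells were among those used for the choice. In GP 3 reached 0.4 and 19 were above 0, and in PF 1 reached 0.4, Lgals3 with Tppp3, and 11 were above 0.

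Other genes of the pathways in which the 8 take part were counted from lists. Beside them stand the shares of all genes, of which 6.6% were raised and 5.27% lower against PF, 18.9% and 12.5% against SAG, and 6.39% and 7.02% against GP. Of 14 hyaluronan matrix genes with enough reads, a list without Tnfaip6, 2 were raised in COR over PF and 1 lower, 5 were raised over SAG and 3 lower, and 1 was raised over GP and 0 lower. Cd44, the main cell surface receptor for hyaluronan, was raised over all 3 tissues. It had 231 and 384 CPM on the COR plates and 123 and 100.5 CPM in PF, 84.1 and 11.9 CPM in SAG and 141 and 96.9 CPM in GP, so COR lay above all other plates. Its reads were in 49 of 74 COR cells, and across the COR cells it went with Tppp3 (0.56), Lgals3 (0.52), Lrrc15 (0.46) and Tnfaip6 (0.46). The list as a whole did not. Its 8 genes with enough COR cells had median correlations of 0.06 with Lrrc15, 0.04 with Lgals3, 0.01 with Tnfaip6 and 0.005 with Tppp3. Itih5, also on the list, had -0.48 with Lrrc15 and -0.39 with Lgals3. Hapln1, a link protein of hyaluronan and aggrecan, had 80.6 CPM in COR, raised over PF (34.6 CPM) but lower than in SAG (1225 CPM), with 132 CPM in GP. Tmem2, a membrane protein of hyaluronan turnover, was also lower in COR (69.5 CPM) than in SAG (482 CPM).

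Among 13 genes, none of the 8, known to answer TGF-beta in fibroblasts, 1 was raised over PF and 1 lower, 2 were raised over SAG and 2 lower, and 0 were raised over GP and 5 lower. Postn, which codes for the matrix protein periostin, was raised over PF with 4185 and 6331 CPM on the COR plates against 1352 and 855 CPM in PF, and was level with GP, where it had 5922 and 6191 CPM. Across COR cells Postn went with Lrrc15 (0.46), the highest of the list. The 11 listed genes with enough COR cells had a median of 0.25 with Lrrc15 and 0.21 with Lgals3. Sulf1 (-0.005), Fap (0.04) and Col11a1 (0.06) had values near 0 with Lrrc15. Acta2, smooth muscle actin, had 432 CPM in COR, was lower than in GP (1633 CPM) and went with Lrrc15 (0.45) and Lgals3 (0.43). Comp, a cartilage and tendon matrix protein, had 0 reads in COR and 1665 CPM in GP.

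The lists of the families include the chosen genes, which had been picked on these contrasts. Of 5 galectin genes with enough reads, Lgals3 was raised over PF and SAG and Lgals1 (galectin-1) over SAG, and 0 were raised over GP. Without Lgals3, 0 of 4 were raised over PF, 1 over SAG and 0 over GP. Tppp, the relative of Tppp3, had 0 reads in COR, PF and SAG. Pdzrn3 was raised over PF, with 31.7 CPM in COR and 15.1 CPM in PF, and was at 53.7 CPM in SAG. Of 4 calcium-activated potassium channels, Kcnn4 alone was raised over PF and over GP, and Kcnn1 was raised with it over SAG (9.61 CPM in COR and 2.03 CPM in SAG). Of the genes listed with Lrrc15 for their leucine-rich repeats or their place at the cell surface, Lrrc17 was raised over GP (281 and 83.3 CPM) and Gpc3 over SAG (665 and 118 CPM), while Lrrc32 was lower than in PF and GP. Farp1 had 45.3 CPM in COR and 68.4 CPM in PF. Of 12 FARP, plexin and small GTPase genes 2 were raised over PF (Plxna2 and Sema6a), 3 over SAG and 2 over GP, Farp2 among the last 2 counts. The 3 lower under SAG were Plxna2, Sema6a and Nrp1. Without Farp2 the raised counts were 2, 2 and 1 of 11. Of 18 planar polarity genes 4 were raised over PF, 2 over SAG and 4 over GP, with 6 lower under SAG. Ankrd6, Vangl1, Vangl2 and Ror2 made up those raised over PF, and without Ankrd6 the raised counts were 3, 2 and 3 of 17. Vangl1 was among those lower under SAG, with 13.8 CPM in COR and 140 CPM in SAG.

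Lgals3 and Kcnn4 are also known from macrophages, and the reads of macrophage genes were few. The 10 macrophage markers summed to 5.87 and 6.28 CPM on the COR plates, 42.4 and 17.02 CPM in PF, 7.57 and 0 CPM in SAG and 16.2 and 33.96 CPM in GP, and 4 of the 10 had 0 reads in COR. Of 29 COR cells with Lgals3 reads, 0 had a read of Ptprc, Csf1r, Adgre1, C1qa or C1qb (Adgre1 is listed as Emr1), and of 20 with Kcnn4 reads 0 had. Of the other markers, Tyrobp had a read in 1 of the 29 and Cd14 in 1 of the 20. A count of 0 leaves room for up to 3 such cells in each case.

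Markers of bone, the dura, tendon and vessel walls gave mixed or low values as lists. The median correlation of 8 osteoblast markers across COR cells lay between -0.13 (Tnfaip6) and 0.11 (Pdzrn4), although Sp7, a transcription factor of the osteoblast lineage, went with Lgals3 (0.48), Lrrc15 (0.48), Tppp3 (0.42) and Kcnn4 (0.40). Late osteoblast genes did not, with Bglap (osteocalcin) at -0.24 with Lgals3 and -0.05 with Lrrc15. The 4 dura and arachnoid genes with enough COR cells had median correlations of -0.27 with Lrrc15, -0.25 with Lgals3 and -0.18 with Tppp3. The medians were -0.13 with Kcnn4 and -0.02 with Tnfaip6. Foxc1, a transcription factor of the meninges, had -0.36 with Lrrc15. Mgp, also on this list, had -0.04 with Lrrc15, 0.08 with Lgals3 and 0.12 with Tppp3. Tppp3 is itself a tendon sheath marker, but the tendon genes Scx, Tnmd and Prg4 had correlations of -0.03 and -0.21 with it (Scx and Tnmd) or reads in too few cells (Prg4, 2.70% of COR cells). The summed tendon list, which includes Tppp3, was lowest in COR, at 1389 and 1701 CPM, and highest in GP, at 11996 and 7567 CPM. Of the 6 pericyte and smooth muscle markers, Myh11 and Rgs5 had 0 reads in COR, and the 2 with enough COR cells, Acta2 and Cspg4, had a median correlation of 0.34 with Lgals3 and Kcnn4 and 0.27 with Lrrc15. The part of such cells in the joint levels was not tested.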

How the data were processed

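The deposited values were unnormalized read counts, a row for each gene and a column for each cell, which the authors made from single cells sorted into wells, amplified without molecular identifiers, aligned to mm9 with STAR 2.5.3a and counted with HTSeq. The submitters' processing notes also name Seurat 2.3.0 and R 3.4.4. Annotation and strand handling are not given in the sources used here. The groups were taken from the titles. For 1 SAG cell the description named a PF plate, and it stayed with SAG except in an alternative without it. Each tissue counted as 1 sample, so no test was run.

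The 8 genes and the gene lists were chosen with earlier results of these data known. Cells with at least 500 genes and 10000 reads were kept (35 removed). No doublet caller was run, since cells were sorted singly into wells. Counts other than Rn45s were summed per tissue and plate and scaled to CPM (32037308 reads in COR, 30299518 in PF, 28471545 in GP and 17212041 in SAG), and 10686 genes with at least 10 CPM in a tissue were compared with a pseudocount of 1 CPM. Correlations were Pearson correlations of log2(CPM + 1) over cells. Named were the 8 genes, the 3 genes with the highest correlation to each among those with reads in at least 10 COR cells and on both COR plates, and list genes with at least 10 CPM in a tissue. Dpt was named because 2 of the 8 genes shared it, Crip1 and S100a6 because several did, and Stk25 for its overlap, after their values were seen. Intervals were exact Poisson or exact binomial (Clopper-Pearson) at 95%, and cover counting error only. A count of 0 allows up to 3 counts. Positions, exon lengths and overlaps came from GENCODE M1 on mm9. Ankrd6 and Pdzrn4 also overlap a pseudogene and a small nucleolar RNA. Alternatives were other scalings (edgeR 4.0.16 TMM factors, median-of-ratios size factors, Rn45s counted), other pseudocounts, gene filters and cell filters, and the mean over single cells. Others were leaving out a plate or the cell with most reads of the gene, at least 10 reads for a positive cell, thinning, and Spearman correlation. The steps were tested on simulated data and run in Python 3.11.15 with numpy 2.4.6, pandas 2.3.3, scipy 1.17.1 and matplotlib 3.10.9.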

Additional observations from a re-analysis of the deposited data

How the results depend on the processing

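No paired analysis was possible because no test was run and cell and plate numbers do not tie cells of different tissues to an animal or day. The number of the 8 genes raised was 6 to 8 over PF, 5 to 7 over SAG and 4 to 7 over GP across the alternatives, each within 1.5 times the reported number. Of the log2 ratios recomputed, 315 kept their side of the rule, 14 came to meet it, 8 no longer met it and 7 changed sign. For Ankrd6, COR to SAG, the sign changed with TMM factors (-0.090), median-of-ratios size factors (-0.20), the mean of the CPM of single cells (-0.16) and without SAG plate 1 (-0.50, against 2.62 without SAG plate 2). These scalings moved the median of all genes in COR to SAG from 0.30 to 0.09 (TMM) and 0 (median of ratios), and counting Rn45s moved it to 1.93. The sign also changed for Tnfaip6, COR to GP, without the cell with most Tnfaip6 reads of each tissue (0.056). It changed as well for Farp2, COR to PF, without PF plate 2 (-0.089, against 1.65 without PF plate 1) and for Lgals3, COR to GP, without COR plate 2 (-0.078, against 1.005 without GP plate 2). Tnfaip6 no longer met the rule over SAG without COR plate 2 (0.99), nor Ankrd6 over PF without PF plate 1 (0.98). The share of COR cells with at least 3 of the genes was 44.8% to 68.8% with a plate left out, the higher value without plate 2, and 43.2% to 51.4% under the other alternatives. All 24 named correlations stayed at 0.4 or above on COR plate 2 and by Spearman correlation. They also did so after thinning, chosen after seeing the data, and without the COR cell with most reads of the member gene. All of these values used COR cells by which the pairs were picked, so they are no independent check. The stricter cell filter left 0 cells of SAG plate 2. Of the shares of cells recomputed, 200 stayed within their interval and 24 did not, among them the SAG shares of Lgals3 (16.7%), Tppp3 and Pdzrn4 (23.3% each) without SAG plate 2. With 16 COR cells on plate 1, its single shares and correlations are imprecise.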

Other observations

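Some genes had negative correlations with single genes of the set across COR cells, and were chosen after their values were seen. The 5 genes with the lowest correlation to Lrrc15 included Itih5, which codes for a heavy chain that links to hyaluronan (-0.48), and Col14a1, a fibril-associated collagen (-0.47). Itih5 had reads in 17 and Col14a1 in 18 of 74 COR cells, and for each 2 of those cells had Lrrc15 reads. Apoe, the lipid carrier apolipoprotein E, had reads in 21 COR cells, and 0 of them had Lgals3 reads (r = -0.45). Angptl4, a secreted inhibitor of lipoprotein lipase, had -0.50 with Tppp3 and -0.47 with Lgals3, and its reads were in 35 COR cells, of which 3 had Tppp3 reads. Some values were weaker on COR plate 1, with -0.19 for Angptl4 and Tppp3 and -0.13 for Col14a1 and Lrrc15. These genes were not limited to COR, since Apoe had 1267 CPM in PF and 366 CPM in COR, and Col14a1 865 and 382 CPM. The negative values were mostly absent over GP cells. There Col14a1 and Lrrc15 had r = 0.17, with 12 cells holding both, and Angptl4 and Lgals3 had 0.28, with 7 holding both. Itih5 had -0.17 with Lrrc15 in GP, Angptl4 -0.03 with Tppp3 and Apoe 0.01 with Lgals3.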
